A study of Mus musculus with 16 samples.

Results

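Complement genes were followed in mouse dorsal root ganglia (DRG) and spinal cord after nerve injury. The 9 genes described here, of 53465 in the count table, were chosen by name as components, receptors and regulators of the complement system: C1qa, C1qb, C1qc, C3, C4b, C3ar1, C5ar1, Serping1 and Cd59a. The choice was made with earlier results of these data known. Complement is a cascade of plasma and tissue proteins. C1q, assembled from 3 related chains, binds to surfaces and immune complexes and starts the classical pathway, C4 and C3 are then cleaved and deposited on the target, and the small fragments released act on receptors of myeloid cells. Serping1, the C1 inhibitor, blocks the proteases that C1q carries, and Cd59a stops the pore-forming end of the cascade at the cell surface. In the central nervous system, C1q is made mainly by microglia, and complement is known for marking synapses and debris for removal by phagocytes.

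The groups were DRG after spared nerve injury (SNI), DRG after sham surgery, dorsal spinal cord after SNI and dorsal spinal cord after sham surgery. SNI ligates and cuts the tibial and peroneal branches of the sciatic nerve and leaves the sural branch intact, while sham surgery leaves every branch alone. All mice were female C57BL/6J operated on both sides at 8 weeks of age, and lumbar DRG and the matching dorsal cord were taken on day 30. Each group had 2 replicates, each a pool of 10 mice, and every lysate was divided for ribosome footprints and for poly(A)+ mRNA, which gave 16 libraries. The mRNA and footprint results of a replicate therefore come from the same mice and are not independent of each other, and n = 2 pools holds for every group.

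Between 6898056 and 28553113 reads per library were counted in genes. Markers of the labelled tissue fitted it, with 7 sensory neuron genes summing to 5270 to 5400 CPM (reads scaled to a common library size) in DRG mRNA and 63.3 to 80.3 CPM in cord mRNA. Libraries also differed in genes of other cells. The 7 skeletal muscle genes summed to 124 and 125 CPM in SNI DRG mRNA, against 44.9 and 48.5 CPM in sham DRG mRNA, and all 7 rose. Of 6 oligodendrocyte genes tested in DRG mRNA, 5 fell, and the summed level of the list of 7 was 1030 to 1050 CPM in SNI DRG and 1310 to 1330 CPM in sham DRG. Footprints of this list did not fall, with 858 to 887 CPM in SNI DRG and 821 to 877 CPM in sham DRG. Of 3 tested in DRG footprints, 1 rose and none fell. In DRG mRNA 16.0% of all genes rose and 16.9% fell, and in DRG footprints 8.20% rose and 8.25% fell. The part of these differences in the complement results was not tested. In bulk tissue, fewer cells of a type and less RNA per cell cannot be told apart.

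The genes of the C1q chains lie side by side on chromosome 4 of GRCm38, all on the minus strand, C1qb from 136880129 to 136886187, C1qc from 136889804 to 136893065 and C1qa from 136895917 to 136898803. No exon of the 9 genes overlaps another annotated gene. Promoter sequences of RefSeq on GRCm38.p6 (250 bases before to 50 after the start) matched 6 of the 9, and 30-base stretches are shown for those with the core letters GAGGAA on either strand, which PU.1, the lineage factor of macrophages and microglia, binds. The C1qb stretch is chr4:136886213-136886242, the C1qc stretch chr4:136893090-136893119 and the Cd59a stretch chr2:104095727-104095756. Each is written on the gene's strand with the match in capitals, which for C1qc is the reverse complement TTCCTC.
C1qb: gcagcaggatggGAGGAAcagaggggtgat
C1qc: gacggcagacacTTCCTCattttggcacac
Cd59a: tgctctctgacaGAGGAAaaggcagtgact
The letters stood in 3 of the 6 matched promoters and in 28.3% of 32851 promoters of the same length, so they are common. C3, C3ar1 and C5ar1 had no match in this window. The letters TTCNNNGAA, bound by STAT factors, were in 8.30% of all promoters and in none of the 6, and the core of the interferon-stimulated response element, GAAA repeated after a gap of 2 bases, was in 3.44% and in Cd59a alone of the 6. A match is a description and not a binding site.

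Transcripts of all 3 C1q chains rose in both tissues after SNI. C1qa mRNA was 56.3 and 56.1 CPM in SNI DRG, against 39.5 and 37.3 CPM in sham DRG, a log2 difference of 0.55 (standard error 0.042, adjusted p = 1.2e-12). CPM here and below are scaled by TMM factors, and adjusted p-values come from the quasi-likelihood test of edgeR with Benjamini-Hochberg adjustment over all genes. C1qb mRNA was 41.8 and 41.6 CPM in SNI DRG, against 30.2 and 29 CPM in sham DRG (log2 difference 0.49, standard error 0.049, adjusted p = 4.2e-10). C1qc mRNA was 33.3 CPM in both SNI DRG pools, against 22.7 and 21.9 CPM in sham DRG (log2 difference 0.58, standard error 0.056, adjusted p = 3.3e-10). The SNI pools lay above the sham pools for each chain, and the spread within a group was small beside the gap.
In the cord, C1qa mRNA was 59.9 and 65.8 CPM after SNI, against 47.3 and 48.1 CPM after sham surgery (log2 difference 0.40, standard error 0.046, adjusted p = 1.3e-08). C1qb was 67.9 and 70.9 CPM in SNI cord, against 49.1 and 52.7 CPM in sham cord (log2 difference 0.45, standard error 0.044, adjusted p = 7.9e-11). C1qc was 50.7 and 50.0 CPM in SNI cord, against 39.0 and 38.4 CPM in sham cord (log2 difference 0.38, standard error 0.048, adjusted p = 1.8e-07). The groups did not overlap for any of the chains in the cord either.

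**Figure D1:**
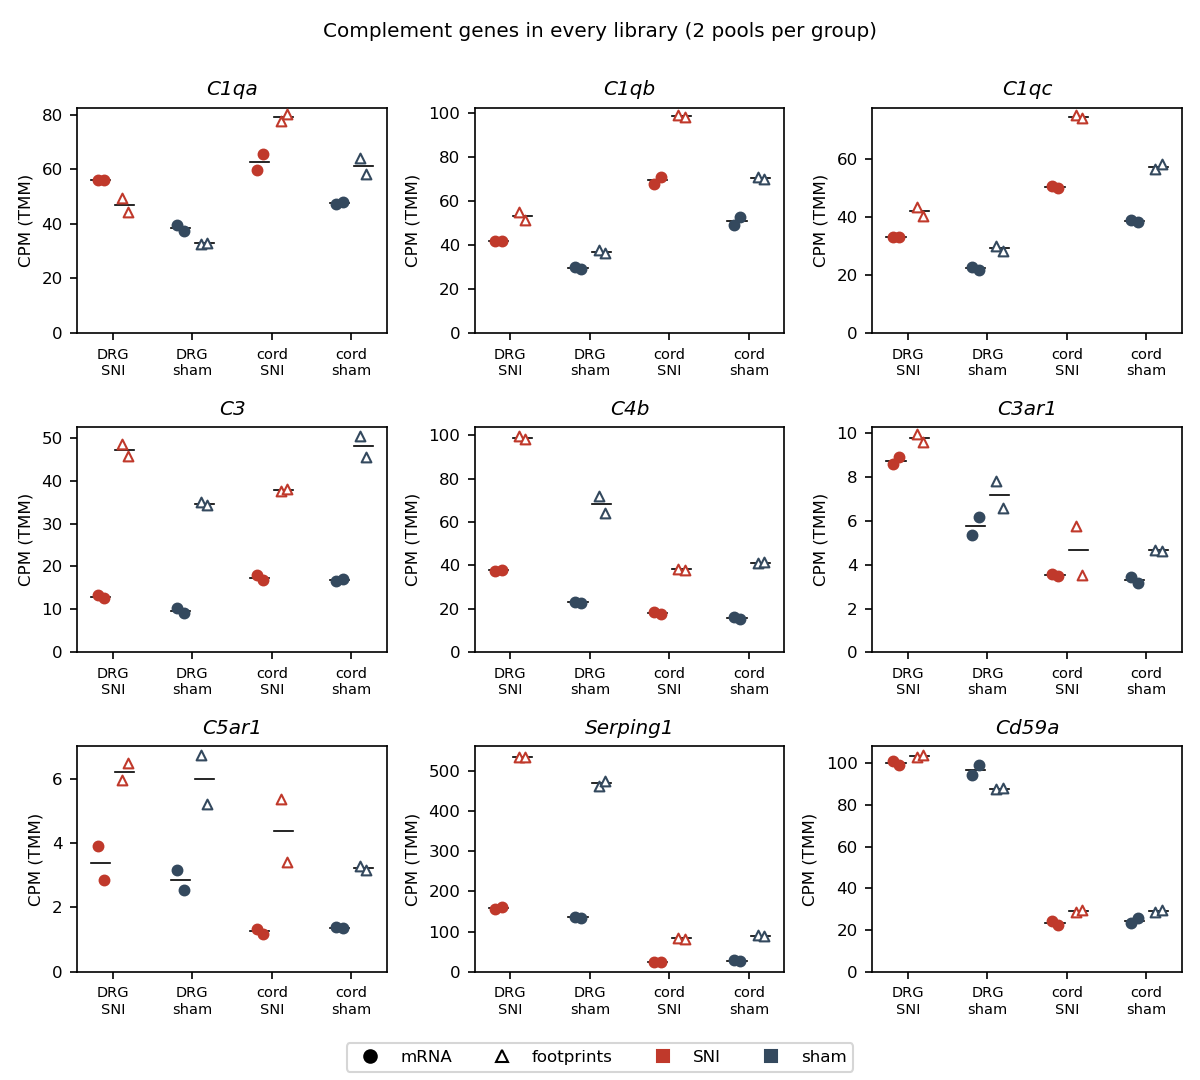
Level of each of the 9 complement genes in every library, in CPM scaled by TMM factors, with SNI in red and sham in blue, mRNA as filled circles and footprints as open triangles, and bars at the mean of 2 pools. C1qa, C1qb and C1qc are higher in SNI than in sham pools in both tissues, C4b is raised in the DRG (98 and 99.5 CPM of footprints after SNI), and Serping1 and Cd59a are highest in the DRG.

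The footprints of the chains rose too. In the DRG, C1qa had 49.5 and 44.4 CPM of footprints after SNI, against 32.8 and 33.0 CPM in sham DRG (log2 difference 0.49, standard error 0.063, adjusted p = 2.1e-09). C1qb had 55.1 and 51.4 CPM in SNI DRG, against 37.6 and 36.2 CPM in sham DRG, and C1qc had 43.6 and 40.5 CPM in SNI DRG, against 30.1 and 28.4 CPM in sham DRG, with a log2 difference of 0.53 for each (adjusted p = 1.1e-11 for C1qb and 1.7e-09 for C1qc). In cord footprints the log2 differences were 0.38 for C1qa, 0.49 for C1qb and 0.37 for C1qc, all called and with groups apart. C1qb had 98.9 and 97.9 CPM of footprints in SNI cord, against 70.9 and 69.8 CPM in sham cord (adjusted p = 2.6e-06). C1qc had 75.2 and 74.2 CPM in SNI cord, against 56.6 and 58.3 CPM in sham cord (adjusted p = 3.6e-04). The groups did not overlap for either chain. C1qa had 77.8 and 80.3 CPM of footprints in SNI cord, against 64.2 and 58.4 CPM in sham cord, and its call was lost without cord sham replicate 2 (log2 difference 0.30, adjusted p = 0.110).
Translation efficiency (TE), footprints over mRNA of the same lysate, was not called by edgeR for any chain in either tissue, the lowest unadjusted p being 0.466, nor by DESeq2. The log2 differences of TE were -0.06, 0.03 and -0.05 for C1qa, C1qb and C1qc in the DRG and lay between -0.02 and 0.04 in the cord, with standard errors between 0.072 and 0.094.
Some markers of the cells known to make C1q were also called higher. Of all genes, 16.0% rose in DRG mRNA and 1.64% in cord mRNA. Of 10 microglial genes, 9 were tested in DRG mRNA and 5 rose (median log2 difference 0.43), and their sum was 191 to 194 CPM in SNI DRG and 170 to 172 CPM in sham DRG. In cord mRNA 5 of 10 rose (median 0.26), with sums of 381 to 383 CPM in SNI cord and 320 to 325 CPM in sham cord. Macrophage genes summed to 92.5 to 95.5 CPM in SNI DRG and 79.6 to 84.5 CPM in sham DRG, and 5 of 9 tested rose, while in cord mRNA 1 of 8 tested rose. No microglial or macrophage marker was at 0 in any group, and the part of cell number in the C1q result was not tested.

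The proportions of the chains were compared between the tissues as 4 ratios. None passed after adjustment, but a ratio that differed alone could not have passed with 4 lysates per tissue. The test therefore cannot show that the proportions were equal. C1qa over C1qb, as reads of the same mRNA library, was 1.35 in both SNI DRG pools and 1.31 and 1.29 in sham DRG, against 0.882 and 0.929 in SNI cord and 0.963 and 0.912 in sham cord. The mean was 1.32 ± 0.031 in DRG and 0.921 ± 0.034 in cord (SD, n = 4 lysates each, SNI and sham together, exact permutation p = 0.0286, the smallest this design allows, and 0.114 adjusted over 4 ratios, 2-sided). The 4 DRG lysates lay above the 4 cord lysates. In footprints the same ratio was 0.886 ± 0.022 in DRG and 0.837 ± 0.050 in cord (SD, n = 4 each, exact permutation p = 0.143, adjusted 0.190), and the ranges overlapped. C1qc over C1qb was 0.776 ± 0.025 in DRG and 0.744 ± 0.038 in cord in mRNA (SD, n = 4 each, exact permutation p = 0.143, adjusted 0.190). In footprints C1qc over C1qb was 0.791 ± 0.0057 in DRG and 0.788 ± 0.037 in cord (SD, n = 4 each, exact permutation p = 0.971). These ratios were chosen after the values had been seen.
Per kilobase of coding sequence, the footprints of C1qa were 0.892 to 0.941 of those of C1qb in the DRG and 0.812 to 0.935 in the cord, and those of C1qc were 0.809 to 0.822 in the DRG and 0.780 to 0.859 in the cord. Per kilobase of exon, C1qa mRNA was 1.35 to 1.41 of C1qb mRNA in the DRG and 0.923 to 1.01 in the cord. C1qc mRNA was 0.397 to 0.451 of C1qb mRNA across the 8 lysates, with an annotated exonic length of 1931 bases for C1qc, against 1088 for C1qb.

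**Figure D2:**
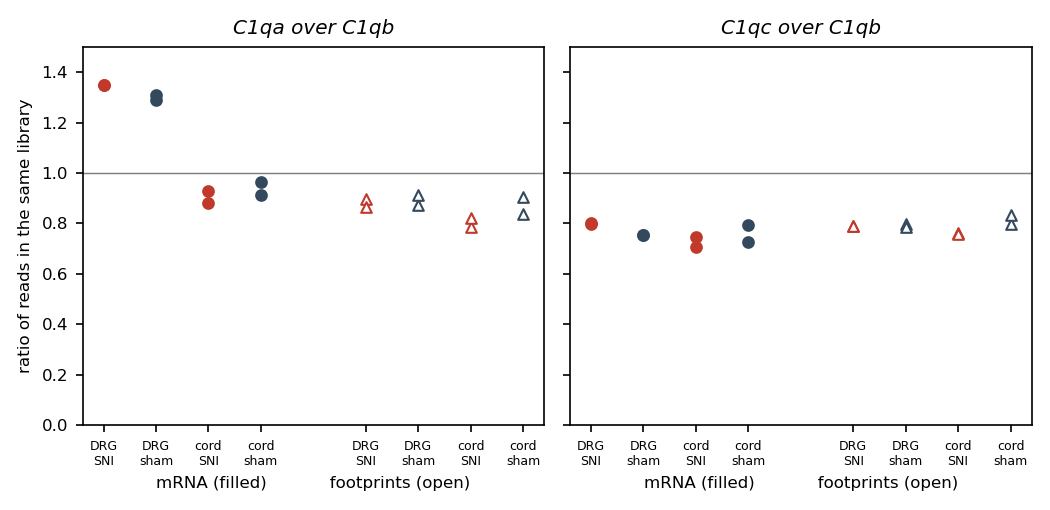
Ratio of reads of C1qa to C1qb and of C1qc to C1qb in the same library, for mRNA (filled) and footprints (open), with SNI in red and sham in blue and 2 pools per group. The mRNA ratio of C1qa to C1qb is 1.29 to 1.35 in the DRG and 0.882 to 0.963 in the cord, and the footprint ratios of the tissues overlap.

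TE was also compared between the sham tissues. C1qa TE was lower in sham DRG, with log2 values of -0.26 and -0.18, than in sham cord, with 0.44 and 0.28, a log2 difference of -0.57 (standard error 0.090, adjusted p = 3.3e-09). For C1qb and C1qc the differences were -0.14 (adjusted p = 0.195) and -0.18 (adjusted p = 0.126). Of the 9 genes, 3 were called in this comparison, 1 higher in DRG (18.1% of 12504 genes) and 2 lower (25.0%), against 43.1% called in all. C3 TE was higher in sham DRG (1.77 and 1.90, against 1.59 and 1.42 in sham cord, log2 difference 0.34, adjusted p = 0.0152), a call that was lost without DRG sham replicate 2 (0.27, adjusted p = 0.206) without cord sham replicate 2 (0.25, adjusted p = 0.169) and with DESeq2 (0.35, adjusted p = 0.301). Cd59a TE was lower in sham DRG (-0.11 and -0.17, against 0.30 and 0.21 in sham cord, log2 difference -0.39, adjusted p = 1.1e-04), a call that was lost with DESeq2 (-0.37, adjusted p = 0.0589).

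C4b, the substrate of the C1 proteases, had the largest mRNA increase of the 9 in the DRG. C4b mRNA was 37.6 and 38.0 CPM in SNI DRG, against 23.2 and 22.9 CPM in sham DRG (log2 difference 0.71, standard error 0.053, adjusted p = 4.9e-13). Its footprints were 99.5 and 98 CPM in SNI DRG, against 72.0 and 64.1 CPM in sham DRG (log2 difference 0.56, standard error 0.049, adjusted p = 2.0e-15). In cord mRNA C4b was 18.4 and 17.8 CPM after SNI and 16.2 and 15.6 CPM after sham surgery, a log2 difference of 0.18 that missed the threshold (adjusted p = 0.163). Cord footprints of C4b were 38.6 and 38.1 CPM after SNI and 41.0 and 41.6 CPM after sham surgery (log2 difference -0.11, adjusted p = 0.590). The groups did not overlap in any of these 4 comparisons, but the cord differences were small. C4b lies on chromosome 17 from 34728380 to 34743882, near its close copy C4a, and reads that fit both copies could be lost or assigned to either. Such reads were not measured, so the level of C4b is uncertain in this respect. C4a itself had 90 reads in the 16 libraries together.

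C3, on which all pathways converge, rose in the DRG. C3 mRNA was 13.3 and 12.6 CPM in SNI DRG, against 10.3 and 9.19 CPM in sham DRG (log2 difference 0.41, standard error 0.096, adjusted p = 9.2e-04, and 0.0546 with DESeq2). C3 footprints were 48.4 and 45.8 CPM in SNI DRG, against 35.0 and 34.3 CPM in sham DRG (log2 difference 0.44, standard error 0.061, adjusted p = 2.1e-08). The groups were apart in both assays of the DRG.
In cord mRNA C3 was 18.0 and 16.8 CPM after SNI, against 16.7 and 17.0 CPM after sham surgery, and the groups overlapped (log2 difference 0.04, standard error 0.073, adjusted p = 0.821). C3 footprints of the cord went the other way, with 37.5 and 38.0 CPM after SNI, against 50.4 and 45.5 CPM after sham surgery, a log2 difference of -0.33 (standard error 0.077, adjusted p = 0.0171). This call was lost without cord sham replicate 1 (-0.27, adjusted p = 0.208), without cord sham replicate 2 (-0.42, adjusted p = 0.0660), without cord SNI replicate 1 (-0.32, adjusted p = 0.0546) and with DESeq2 (-0.32, adjusted p = 1.0). C3 TE in the cord had log2 values of 1.06 and 1.18 after SNI and 1.59 and 1.42 after sham surgery, and the log2 difference of -0.39 (standard error 0.11) missed the threshold (adjusted p = 0.187). C4b TE in the cord was also lower in both SNI lysates, at 1.07 and 1.1, against 1.34 and 1.41 in sham cord (log2 difference -0.29, adjusted p = 0.516).

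The receptors for the released fragments were expressed at low levels. C3ar1, the receptor for C3a, had 8.57 and 8.91 CPM of mRNA in SNI DRG, against 5.37 and 6.18 CPM in sham DRG (log2 difference 0.60, standard error 0.12, adjusted p = 2.1e-04). Its footprints were 9.94 and 9.60 CPM in SNI DRG, against 7.83 and 6.57 CPM in sham DRG (log2 difference 0.48, adjusted p = 0.00966), and that call was lost without DRG sham replicate 2 (0.31, adjusted p = 0.421), without DRG SNI replicate 2 (0.51, adjusted p = 0.0574) and with DESeq2 (0.46, adjusted p = 0.420). Each footprint library of the DRG held 57 to 206 reads of C3ar1. In the cord, C3ar1 mRNA was 3.57 and 3.49 CPM after SNI and 3.44 and 3.16 CPM after sham surgery (log2 difference 0.09, adjusted p = 0.834).
C5ar1, the receptor for C5a, showed no called change. C5ar1 mRNA was 3.92 and 2.85 CPM in SNI DRG and 3.17 and 2.55 CPM in sham DRG, with overlapping groups (log2 difference 0.26, standard error 0.19, adjusted p = 0.306). C5ar1 footprints were 5.95 and 6.48 CPM in SNI DRG and 6.73 and 5.23 CPM in sham DRG (log2 difference 0.14, standard error 0.16, adjusted p = 0.646). Each mRNA library of the DRG held 45 to 111 reads of C5ar1, and the mRNA difference was -0.01 without DRG SNI replicate 1 (adjusted p = 0.980). In the cord C5ar1 had 59 mRNA reads over the SNI pools and 69 over the sham pools, and its cord footprints were under the minimum number of reads and not tested.

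The regulators were the most abundant of the 9 in the DRG. Serping1 mRNA was 156 and 160 CPM in SNI DRG, against 137 and 134 CPM in sham DRG (log2 difference 0.22, standard error 0.027, adjusted p = 4.5e-08). Its footprints were 533 and 535 CPM in SNI DRG, against 463 and 475 CPM in sham DRG (log2 difference 0.19, standard error 0.029, adjusted p = 6.3e-07). Both are small increases with groups apart. In the cord, Serping1 mRNA was 25.6 and 24.9 CPM after SNI and 29.1 and 26.8 CPM after sham surgery (log2 difference -0.15, adjusted p = 0.165, but -0.21 with adjusted p = 0.0451 without cord sham replicate 2). Its cord footprints were 84.9 and 80.8 CPM after SNI and 90.6 and 88.7 CPM after sham surgery (log2 difference -0.11, adjusted p = 0.348).
Serping1 is known from fibroblasts as well as myeloid cells. In DRG mRNA 6 of 7 fibroblast genes rose, against 16.0% of all genes. The fibroblast genes summed to 1870 to 1880 CPM in SNI DRG and 1670 to 1680 CPM in sham DRG. Their part in the Serping1 result was not tested.
Cd59a mRNA was 101 and 99.1 CPM in SNI DRG and 94.2 and 99.0 CPM in sham DRG, and did not pass the test (log2 difference 0.06, adjusted p = 0.186, but 0.0279 when scaled by library size alone). Cd59a footprints rose, with 103 and 104 CPM in SNI DRG, against 87.5 and 88.1 CPM in sham DRG (log2 difference 0.24, standard error 0.042, adjusted p = 5.8e-06). Its log2 TE was 0.03 and 0.08 in SNI DRG, against -0.11 and -0.17 in sham DRG (log2 difference 0.20, standard error 0.054, adjusted p = 0.00566). The TE call was lost without DRG sham replicate 2 (0.16, adjusted p = 0.239), without DRG SNI replicate 2 (0.17, adjusted p = 0.238), with no filter (0.20, adjusted p = 0.0519) and with DESeq2 (0.19, adjusted p = 0.999). In the cord Cd59a had 24.5 and 22.5 CPM of mRNA after SNI and 23.5 and 25.7 CPM after sham surgery (log2 difference -0.06), and 28.7 and 29.8 CPM of footprints in each group. Its close copy Cd59b had 393 reads in the 16 libraries together. Reads that fit both copies could be lost or assigned to either and were not measured, so the level of Cd59a is uncertain in this respect.

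**Figure D3:**
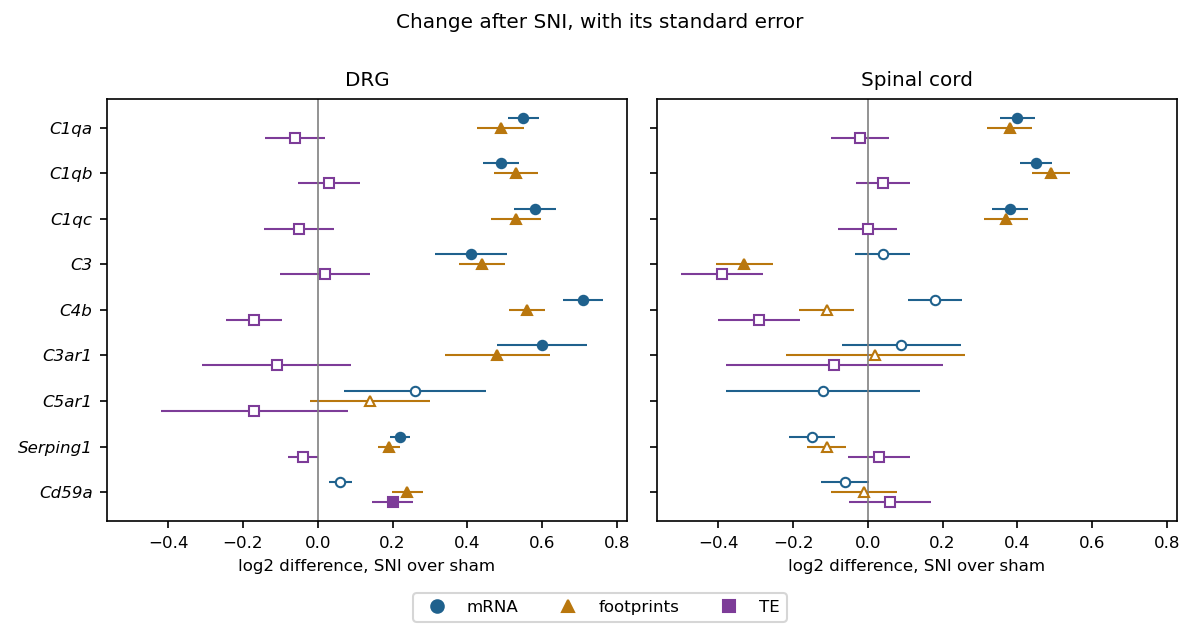
Log2 difference between SNI and sham with its standard error for mRNA (circles), footprints (triangles) and TE (squares) of the 9 genes, DRG on the left and spinal cord on the right, with filled symbols for an adjusted p under the threshold. In the DRG the mRNA differences lie between 0.06 and 0.71, and in the cord the C1q chains alone are called in mRNA, with C3 footprints at -0.33.

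Counted over the 9 genes, 7 rose in DRG mRNA and none fell, against 16.0% of 14494 genes that rose and 16.9% that fell, with a median log2 difference of 0.49 for the 9 and 0.00 for all genes. In DRG footprints 8 rose and none fell, against 8.20% of 13038 genes that rose and 8.25% that fell (median 0.48 for the 9 and 0.00 for all). In DRG TE 1 rose and none fell, against 4.15% and 3.34% of 12710 genes. In cord mRNA 3 rose and none fell, against 1.64% of 14723 genes that rose and 2.19% that fell (median 0.09 for the 9 and -0.01 for all). In cord footprints 3 of 8 tested rose, against 0.999% of 12018 genes, and 1 fell, against 1.85%. In cord TE none of 8 tested was called with edgeR or with DESeq2, against 0.270% of 11865 genes, and C3 and C4b had an unadjusted p of 0.00104 and 0.0112. The groups of 2 pools did not overlap for 8 of the 9 in DRG mRNA (64.4% of all genes tested), 8 of 9 in DRG footprints (53.2%), 2 of 9 in DRG TE (47.5%), 7 of 9 in cord mRNA (46.3%), 6 of 8 in cord footprints (44.7%) and 2 of 8 in cord TE (36.7%). Non-overlap was thus common among all genes. The 9 genes were chosen with earlier results of these data known, so their shares are a description and not a test of complement genes.

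The response differed between the tissues for C3, C4b and Serping1. Of the 9 genes, 3 had a higher mRNA response in the DRG than in the cord by the interaction of surgery and tissue, against 6.35% of 16716 genes, none a lower one (7.23%), and 3 had a higher footprint response, against 3.97% of 14194 genes, none a lower one (3.15%). For C4b the response in the DRG exceeded that in the cord by 0.53 (standard error 0.091, adjusted p = 2.1e-05) in mRNA and by 0.67 (standard error 0.094, adjusted p = 9.1e-07) in footprints on the log2 scale. For Serping1 the excess was 0.38 (adjusted p = 2.1e-05) in mRNA and 0.29 (adjusted p = 3.3e-05) in footprints. For C3 it was 0.77 in footprints (standard error 0.10, adjusted p = 3.7e-07) and 0.37 in mRNA (standard error 0.12, adjusted p = 0.0261).
The C3 mRNA difference was lost without DRG sham replicate 2 (0.30, adjusted p = 0.177), DRG SNI replicate 1 (0.33, adjusted p = 0.129), cord sham replicate 1 (0.38, adjusted p = 0.0562), cord sham replicate 2 (0.36, adjusted p = 0.0564) or cord SNI replicate 2 (0.32, adjusted p = 0.101), with DESeq2 (0.37, adjusted p = 0.313) and with no filter (0.37, adjusted p = 0.0501). The C1q chains, called in both tissues, had differences of response of 0.15 for C1qa (adjusted p = 0.137), 0.04 for C1qb (adjusted p = 0.760) and 0.20 for C1qc (adjusted p = 0.0768) in mRNA. The C1qc difference was 0.22 with adjusted p = 0.0443 when scaled by library size alone, and that of C1qa was 0.22 with adjusted p = 0.0362 without cord SNI replicate 2. For C3ar1 the difference was 0.51 (standard error 0.20, adjusted p = 0.0769).

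The mRNA levels after sham surgery differed between the tissues for all 9 genes, with 5 higher in sham DRG and 4 lower. In this comparison 40.8% of 14706 genes were higher and 43.0% lower, 83.8% in all, and the groups did not overlap for 91.1%. Serping1 mRNA was 137 and 134 CPM in sham DRG, against 29.1 and 26.8 CPM in sham cord (log2 difference 2.27, standard error 0.044, adjusted p = 2.7e-62). Cd59a was 94.2 and 99.0 CPM in sham DRG, against 23.5 and 25.7 CPM in sham cord (log2 difference 1.98). C5ar1, C3ar1 and C4b were also higher in sham DRG, by 1.07, 0.79 and 0.53. The C1q chains and C3 were lower in sham DRG, with log2 differences of -0.31 for C1qa, -0.78 for C1qb, -0.79 for C1qc and -0.79 for C3. The receptors and regulators thus stood higher in the ganglion and the chains of C1q in the cord. Microglial genes summed to 320 to 325 CPM in sham cord mRNA, beside 170 to 172 CPM in sham DRG mRNA. Macrophage genes went the other way, with 34.3 to 35.6 CPM in sham cord mRNA and 79.6 to 84.5 CPM in sham DRG mRNA. The part of these cells in the tissue differences was not tested.
Ordered by group, the mRNA of C1qb and C1qc was highest in SNI cord, then sham cord, SNI DRG and sham DRG, with no overlap between neighbours. For C1qa, SNI DRG (56.2 ± 0.119 CPM, SD, n = 2) stood above sham cord (47.7 ± 0.561 CPM). For C4b the order was SNI DRG, sham DRG, SNI cord and sham cord, with no overlap. For C3 the 2 cord groups came first and overlapped, and for Cd59a they came last and overlapped.
Set per kilobase of coding sequence, footprints in sham DRG were 310 ± 5.61 CPM for Serping1, 238 ± 1.09 for Cd59a, 48.6 ± 1.36 for C1qb, 44.8 ± 0.146 for C1qa, 39.6 ± 1.57 for C1qc, 13 ± 1.07 for C4b, 6.95 ± 0.1 for C3, 5.68 ± 1.00 for C5ar1 and 5.03 ± 0.621 for C3ar1 (SD, n = 2). The order in sham cord began with C1qb at 92.7 ± 1.04, C1qa at 83.4 ± 5.57, Cd59a at 79.3 ± 1.97 and C1qc at 77.9 ± 1.61, and C1qa, Cd59a and C1qc differed by no more than about their spread. In sham DRG the pools of C5ar1 and C3ar1 overlapped, while the others kept this order in both pools.

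C3, C4b, Serping1 and the receptor C5ar1 carried many footprints for their mRNA. Log2 TE of C3 was 1.86 in both SNI DRG lysates and 1.77 and 1.90 in sham DRG, that of Serping1 lay between 1.64 and 1.83 in all 8 lysates, and that of C4b between 1.07 and 1.64. The median gene of each lysate was at -0.16 to -0.22. By group mean, C3 stood between the percentiles 93.8 and 98 of 13966 genes, C4b between 93.4 and 96.7 and Serping1 between 97.2 and 97.7. C5ar1, on few reads, stood between 89.1 and 97.6, with group means of log2 TE of 0.89 in SNI DRG and 1.06 in sham DRG, and of 1.76 in SNI cord and 1.24 in sham cord. The C1q chains were lower, with C1qb and C1qc between 0.29 and 0.60. C1qa was at the percentiles 47.5 and 49.5 in SNI and sham DRG and 72.9 and 73.1 in SNI and sham cord. These values set footprints on the coding part against reads on the whole transcript, so a long untranslated part lowers them.

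**Figure D4:**
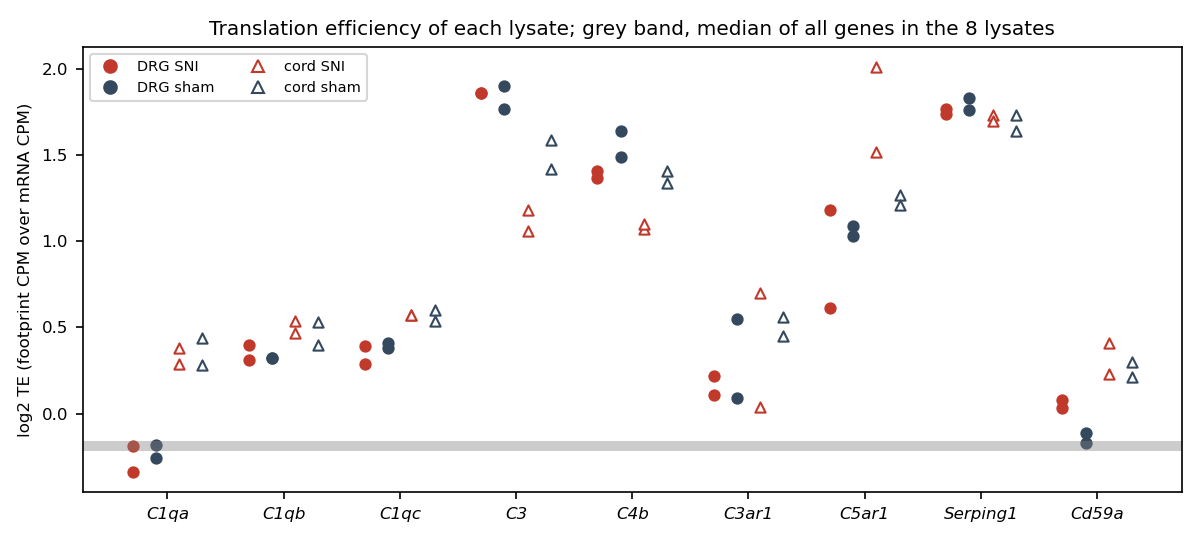
Log2 TE of the 9 genes in each of the 8 lysates, DRG as filled circles and cord as open triangles, SNI in red and sham in blue, with the median of all genes in the lysates as a grey band between -0.22 and -0.16. Serping1 lies between 1.64 and 1.83 in all lysates, C1qa is lower in the DRG than in the cord, and C3 in the cord is lower after SNI (1.06 and 1.18) than after sham surgery (1.59 and 1.42).

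The other 42 genes of a complement list covered the remaining steps of the cascade. In DRG mRNA 18 of them were tested, 3 rose and 2 fell (median log2 difference 0.12), against 16.0% of all genes that rose and 16.9% that fell. These shares are near those of all genes, and the genes named here are a description. In DRG footprints 15 were tested, 3 rose and 2 fell (median 0.08), against 8.20% and 8.25% of all genes. In cord mRNA 15 were tested, none rose and 2 fell, against 1.64% and 2.19% of all genes. In cord footprints none of 9 tested was called by edgeR or by DESeq2. With edgeR, 4 of these other genes had an unadjusted p under 0.05, as had 545 higher and 1182 lower genes of all 12018. DESeq2 called 1 of the other complement genes in DRG mRNA, 3 in DRG footprints, 1 in DRG TE and 0 in cord mRNA. Most of the calls below thus rest on edgeR, and no share of all genes is given for DESeq2. The 6 terminal components, which form the membrane pore, were all under the minimum in DRG mRNA and footprints. Among the starters, the C1 protease C1s1 rose in DRG mRNA by 0.22 (adjusted p = 0.0383), with part of its exons overlapped by an antisense gene and reads not strand-specific, and the collectin Colec12 in DRG footprints by 0.35 (adjusted p = 0.00455). Cfd, factor D of the alternative pathway, rose by 0.24 in DRG footprints (adjusted p = 0.00135). C5ar2, the other C5a receptor, rose by 0.57 in DRG mRNA (adjusted p = 0.0481) on 107 reads in SNI DRG and 53 in sham DRG.
The other regulators changed in both directions. Cd55, the decay-accelerating factor that takes apart C3 convertases, fell by 0.32 in DRG mRNA (adjusted p = 1.6e-14) and by 0.43 in cord mRNA (adjusted p = 0.00268) on the log2 scale, while its TE in the DRG rose by 0.29 (adjusted p = 8.6e-11). Cd55 footprints were not called in the DRG (log2 difference -0.02, adjusted p = 0.745) or in the cord (0.11, adjusted p = 0.800). Susd4, a membrane inhibitor of complement, fell in the DRG by 0.10 in mRNA (adjusted p = 0.0116), by 0.32 in footprints (adjusted p = 3.3e-06) and by 0.23 in TE (adjusted p = 0.00672). Clu, clusterin, fell by 0.12 in DRG footprints (adjusted p = 9.7e-09). Vtn, vitronectin, rose by 0.20 in DRG mRNA (adjusted p = 0.00273) and fell by 0.13 in cord mRNA (adjusted p = 0.0408). Itgam, a chain of complement receptor 3, had 1213 mRNA reads but 34 footprints in all libraries, and its exons are shared with a second annotated Itgam gene, so its values are uncertain.

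Genes outside the complement list were ranked by the mean absolute log2 distance to the profile of the members over the 16 libraries, among 11315 genes. The nearest to the mean of the C1q chains were Laptm5, a lysosomal protein of blood cells (distance 0.096), Prkab1, a subunit of AMP-activated kinase (0.098), Tyrobp, the adaptor of Trem2 (0.128), Tnip2 (0.131) and Per1, a clock gene (0.134), beside a median distance of 0.415 over all genes. Nearest to C4b were Gfra1 (0.077), Sdk1 (0.083), Il13ra1 (0.095), Rnh1 (0.1) and Sned1 (0.120), with a median of 0.510. Nearest to Serping1 were Lama4 and Stat3 (0.074 each), Plscr3 (0.080), Igfbp4 (0.083) and Gfra2 (0.084), with a median of 1.26. The measure takes in the gap between DRG and cord as well as the response to SNI.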

How the data were processed

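Per the labels and the submitters' processing notes, the authors used Bowtie 1.1.2 to discard reads of rRNA and tRNA and STAR 2.5.2b to align the rest to GRCm38.p5, and made the deposited counts per gene with HTSeq, whose version and strand setting are not given in the sources used here. Sequencing was not strand-specific. The authors also deposited RPKM values and a ratio of footprint to mRNA RPKM (TE). Neither was used. The RPKM of the 9 genes rest on lengths other than their exonic lengths (342 against 1040 bases for C1qa). A length shared by both assays cancels in the deposited ratio, and TE was here computed from the counts. The paper's group comparisons were not used.

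The deposited counts were tested with edgeR 4.0.16 in R 4.3.3 by quasi-likelihood tests on genes with at least 128 reads summed over the libraries of each assay, with TMM factors within each assay. TE was the interaction between condition and assay, fitted with lysate terms, and the difference of response the interaction of surgery and tissue. A call was an adjusted p under 0.05. Log2 TE per lysate used 0.5 added reads. Alternatives were DESeq2 1.42.0, library sizes alone, TMM within the fit, no filter, 128 reads in every library, a replicate block, a coefficient of variation of 0.1, a test against 1.5-fold, no lysate terms and leaving out each replicate. The tests were also tried on simulated counts with a fixed spread larger than the common one fitted here. No result above rests on that trial. Coordinates are from GENCODE M21, and tables and figures were made with Python 3.11.15.

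The members, lists and rules were chosen with earlier results of these data known. Named genes were the 9 members, other complement genes called in at least 1 of the 6 SNI comparisons (1 is not reported here), and the 5 nearest profiles. Itgam and the C4a and Cd59b copies were named after their values were seen. The marker lists were microglia, macrophage, neutrophil, fibroblast, astrocyte, oligodendrocyte, Schwann cell, satellite glia, sensory neuron, spinal cord neuron, skeletal muscle, endothelium and erythroid genes.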

Additional observations from a re-analysis of the deposited data

Results flagged for a closer look

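The SNI response differed between DRG and spinal cord by the interaction test of edgeR for 3 genes in each assay, DRG minus cord on the log2 scale. In mRNA the differences were 0.53 for C4b, 0.38 for Serping1 and 0.37 for C3, with a higher response in the DRG for each. In footprints they were 0.77 for C3, 0.67 for C4b and 0.29 for Serping1. The mRNA and footprint libraries share their lysates, so these are not separate pools of mice. For C3 the footprint difference was -0.33 in the cord and 0.44 in the DRG. The cord call of C3 and its mRNA difference of response were each lost with DESeq2 and in several fits without a replicate. For Serping1 the cord differences of -0.15 in mRNA and -0.11 in footprints were not called.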

How the results depend on the processing

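Of 1136 values of single members recomputed under the alternatives, 1044 kept their side of the threshold, 88 lost the call, 4 gained one and 0 were called with the opposite sign. The 1136 include values of genes not called in the main fit, which had no call to lose. Of the lost calls, 29 were under the coefficient of variation of 0.1 and 35 under the test against 1.5-fold. With the coefficient of 0.1, 3 of the 9 genes were called in DRG mRNA (C1qa, C1qc and C4b), 1 in DRG footprints (C4b) and 0 in DRG TE, cord mRNA, cord footprints, both tests of the difference of response and sham TE, against 8 in sham mRNA. Against 1.5-fold, 0 were called in any SNI comparison, either test of response or sham TE, against 6 in sham mRNA. With DESeq2, 0 were called in DRG TE and 1 in sham TE, and with no filter 0 in DRG TE. Leaving out each replicate gave 7 to 7 called in DRG mRNA, 7 to 8 in DRG footprints, 0 to 1 in DRG TE, 3 to 4 in cord mRNA, 2 to 4 in cord footprints, 0 to 0 in cord TE, 2 to 3 for the mRNA response, 3 to 3 for the footprint response, 9 to 9 in sham mRNA and 2 to 3 in sham TE. The lone pool of a group is then assumed to vary like the others. The causes were not tested.

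With a replicate block, 7 were called in DRG mRNA, 8 in DRG footprints, 1 in DRG TE, 3 in cord mRNA, 4 in cord footprints and 0 in cord TE, as without it. The labels give the numbers no shared animals or days, and the deviations of same-numbered pools correlated at 0.043 in DRG mRNA, 0.00185 in cord mRNA, 0.156 in DRG footprints and -0.0162 in cord footprints. The common coefficient of variation was between 0.00988 and 0.0430, close to sampling noise, so with 2 pools per group small differences pass the test, and the spread between mice within a pool is unknown. C3ar1 and C5ar1 had the fewest reads of the 9.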

Other observations

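Neutrophil genes summed to 104 to 108 CPM in SNI DRG mRNA, against 114 CPM in sham DRG, with 1 of 7 tested lower. Their DRG footprints went the other way, with 280 CPM after SNI and 248 to 257 CPM after sham surgery. Of 8 tested in DRG footprints, 2 were higher and none lower. In SNI cord mRNA they summed to 37.2 to 39.8 CPM, against 27.4 to 30.5 CPM in sham cord, with 2 of 5 tested higher. Endothelial genes summed to 134 to 139 CPM in SNI DRG mRNA and 123 to 124 CPM in sham DRG, with 3 of 5 higher. Of 5 erythroid genes 4 fell in DRG mRNA, and none was called in DRG footprints. Beside the counts here and below, 16.0% of all genes rose and 16.9% fell in DRG mRNA. In DRG footprints 8.20% of all genes rose and 8.25% fell. In cord mRNA 1.64% of all genes rose and 2.19% fell.

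The glial and neuronal lists moved less evenly. In DRG mRNA 4 of 6 astrocyte genes fell and 1 rose, 2 of 5 Schwann cell genes rose and 2 fell, 3 of 4 satellite glia genes fell and 1 rose, 3 of 7 sensory neuron genes rose and 4 fell, and 4 of 6 spinal cord neuron genes fell. In DRG footprints 1 of 6 astrocyte genes rose and 1 fell, and 1 of 6 Schwann cell genes fell. Of 4 satellite glia genes 1 rose and 1 fell in DRG footprints. Of 7 sensory neuron genes 4 fell there, and the 1 spinal cord neuron gene tested rose. In cord mRNA 2 of 6 astrocyte genes fell and 1 rose.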
